A study of Homo sapiens with 9 samples.

Results

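The genes described here are the expressed genes of human chromosome 7. They were taken from a count table of 26485 genes: a gene was kept where all of its entries lay on chromosome 7 and its mean was at least 15 CPM (counts scaled to a common library total) over the 3 libraries of the knockout cells. Of 1212 chromosome 7 genes in the table, 447 met that floor, 9 of these were set aside by name (INTS1, PSMG3, NDUFA4, PSMA2, CPSF4, PSMC2, NDUFA5, NDUFB2 and INSIG1), and 438 remained as members. RNA was measured as poly(A)-selected libraries from HEK293, an established human embryonic kidney cell line grown in culture. The 9 libraries form 3 groups of 3: addback, which are UBE3D KO cells with UBE3D put back; KO, with UBE3D disrupted by CRISPR/Cas9; and WT, which carry neither change. UBE3D is annotated as a ubiquitin ligase. The labels mark every sample as pooled, name no promoter for the added UBE3D, and do not say whether KO or addback came from a single clone. Whether the libraries of a group are separate cultures is not stated either, and the p-values reflect only how far these libraries differ. Because the floor used KO levels, comparisons that involve KO are given as descriptions. The floor itself used levels of neither addback nor WT. The background limit described below, which set the tested genes, did use levels of all 9 libraries.

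A chromosome carried in more or fewer copies usually gives more or less RNA from most of its genes together, an effect called gene dosage. Single genes can stand apart from the rest of their chromosome when their own transcription or RNA decay changes, or when a feedback circuit holds their level. HEK293 cells carry an abnormal chromosome set that differs between cultures and between clones. DNA copy number is not among the files used here, so RNA levels along the chromosome are described without reference to a copy number. In bulk RNA, fewer cells that express a gene and less RNA of that gene per cell cannot be told apart.

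Library totals ran between 23088295 and 37508780 counts. Genes of unrelated tissues (624 odorant receptor, keratin-associated and similar genes) gave a measure of background reads over coding sequence: spread over all coding sequence, it would fill 3.00%, 12.5% and 12.4% of addback libraries 1 to 3, 0% of each KO library, and 3.12%, 8.79% and 14.9% of WT libraries 1 to 3. The tests therefore used 5906 genes in which this background was at most 10% of the mean level, and 250 of the 438 members are among them. Levels are given as scaled CPM, which are counts divided by library sizes that were rescaled on those 5906 genes. UBE3D itself stood at 3159 ± 313 scaled CPM in addback, 14.2 ± 1.26 in KO and 22.7 ± 3.91 in WT (SD, n = 3 each). Among markers of the HEK293 line, the neurofilament genes NEFL and NEFM differed in order: NEFL had 167 scaled CPM in addback, 159.6 in KO and 137 in WT, and NEFM had 22.6 scaled CPM in addback, 18.2 in KO and 28.5 in WT. The kidney developmental gene PAX2 had 14.3 scaled CPM in addback, 2.73 in KO and 14.7 in WT. EYA1 and LHX1, from the same marker list, did not follow PAX2. EYA1 had 28.6 scaled CPM in addback, 26.4 in KO and 25.9 in WT, and LHX1 had 24.6, 31.3 and 27.8 in the same order. The 16 markers listed for other cell types summed to between 173 and 360.4 scaled CPM in addback libraries, 101 and 106 in KO and 174 and 449 in WT. Of these, COL1A1, HBB and LRP2 had at least 10 scaled CPM in KO, and the other 13 had means between 1.28 and 33.3 in addback, 0.017 and 2.46 in KO and 1.31 and 40.8 in WT. The collagen gene COL1A1 had 57.5 scaled CPM in addback, 44.2 in KO and 46.5 in WT, the haemoglobin gene HBB 32.9 scaled CPM in addback, 27.5 in KO and 29.7 in WT, and the leukocyte gene PTPRC 11.03 scaled CPM in addback, 0.326 in KO and 20.8 in WT. The part of these markers in the results was not tested.

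Promoter sequences are shown for 4 members that stood above the rest of the chromosome in addback or KO: UPP1, YKT6 and POLD2, which were higher than WT in both, and ASNS, which was higher in addback. Each is 250 bases before to 50 bases after the gene's start in RefSeq, on GRCh38.p14, written 5′ to 3′ on the gene's strand. The windows are chr7:48089004-48089303 on the plus strand for UPP1, chr7:44200728-44201027 on the plus strand for YKT6, chr7:44123499-44123798 on the minus strand for POLD2, and chr7:97872359-97872658 on the minus strand for ASNS. Capitals mark GGGCGG, the GC box bound by SP1 family factors, in either orientation, and in ASNS also TGATGNAA, the letters of the element through which ATF4 acts on amino acid response genes.
UPP1: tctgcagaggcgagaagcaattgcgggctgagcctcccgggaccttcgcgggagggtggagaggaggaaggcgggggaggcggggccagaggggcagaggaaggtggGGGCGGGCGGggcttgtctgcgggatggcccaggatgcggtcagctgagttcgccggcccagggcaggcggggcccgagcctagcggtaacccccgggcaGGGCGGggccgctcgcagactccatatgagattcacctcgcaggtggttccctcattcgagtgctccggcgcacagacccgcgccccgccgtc
YKT6: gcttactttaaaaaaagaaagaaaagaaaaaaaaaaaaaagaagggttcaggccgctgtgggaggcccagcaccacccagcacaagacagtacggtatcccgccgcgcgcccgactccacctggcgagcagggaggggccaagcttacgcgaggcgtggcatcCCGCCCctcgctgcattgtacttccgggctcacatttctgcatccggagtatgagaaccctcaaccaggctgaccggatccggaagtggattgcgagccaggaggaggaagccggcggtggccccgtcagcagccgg
POLD2: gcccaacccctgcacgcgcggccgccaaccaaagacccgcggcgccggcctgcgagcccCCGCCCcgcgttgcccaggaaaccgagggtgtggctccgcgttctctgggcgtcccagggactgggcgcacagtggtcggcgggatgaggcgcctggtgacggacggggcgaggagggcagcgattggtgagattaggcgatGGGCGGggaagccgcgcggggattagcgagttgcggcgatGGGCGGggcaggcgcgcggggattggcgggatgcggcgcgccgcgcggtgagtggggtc
ASNS: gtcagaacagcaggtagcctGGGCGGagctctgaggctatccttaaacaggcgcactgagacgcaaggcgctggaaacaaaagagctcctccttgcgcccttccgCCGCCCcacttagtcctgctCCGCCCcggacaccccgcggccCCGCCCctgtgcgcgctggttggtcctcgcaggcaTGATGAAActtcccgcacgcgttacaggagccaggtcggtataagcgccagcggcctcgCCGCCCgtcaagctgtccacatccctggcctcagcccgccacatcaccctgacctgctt
Searched on both strands, the windows of UPP1, YKT6, POLD2 and ASNS held 3, 1, 3 and 5 matches to GGGCGG, where matches may overlap, and ASNS held 1 match to TGATGNAA. GGGCGG was present in 44.6% of 27326 promoters in the RefSeq table, in 70.7% of the 335 member promoters found there, and in 12 of 15 promoters of members called higher in addback than in WT (GARS had no entry). TGATGNAA was present in 3.67% of all promoters, in 1.49% of member promoters, and in 1 of the 15. The core letters of the interferon-stimulated response element (a pair of GAAA separated by NN) were present in 3.64% of all promoters, in 1.79% of member promoters, and in 0 of the 15. TATAAA, the TATA box, was present in 11.9%, 4.18% and 1 of 15 in the same order. A match is a string of letters and not a measured binding site.

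Chromosome 7 genes were lower in addback than in WT cells as a block. Of the 250 members tested, 165 were lower and 16 higher in addback (edgeR quasi-likelihood test, Benjamini-Hochberg adjusted p under 0.05, which is what "called" means throughout), and 69 were not called. Over all 5906 genes tested, 22.1% were called lower and 19.1% called higher. The median log2 fold of the members was -0.22, a ratio of 0.859, with quartiles of -0.32 and -0.10, and 223 of the 250 values lay below 0. On the other chromosomes, 5569 genes at the same floor had a median of -0.00023, with 1121 called lower and 1089 higher. The spread of the members around their own median (median absolute deviation scaled to an SD, 0.17) was close to that of the other chromosomes (0.16). The shift thus lay in the position of the whole set of folds and not in their width.

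**Figure D1:**
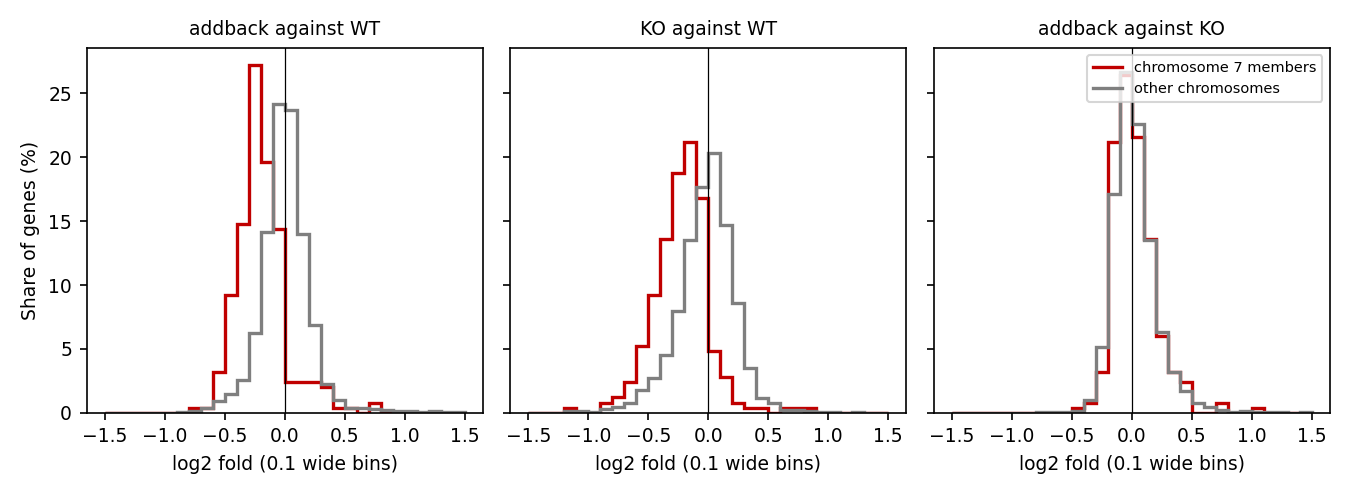
Distribution of log2 folds (x axis, bins of 0.1) as a share of genes in percent (y axis), for 250 chromosome 7 members (red) and 5569 genes of other chromosomes at the same level floor (grey), in addback against WT, KO against WT and addback against KO. The red curve sits left of the grey one in both comparisons with WT, with medians of -0.22 and -0.21, and lies on it in addback against KO, with a median of -0.0080.

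Each library showed the shift. Set against the WT mean, the median member stood at -0.23, -0.23 and -0.20 on the log2 scale in addback libraries 1 to 3, at -0.21, -0.21 and -0.23 in KO libraries 1 to 3, and at -0.0077, -0.011 and 0.011 in WT libraries 1 to 3. The members took 3.34%, 3.38% and 3.39% of the counts of all genes tested in the addback libraries, 3.38%, 3.46% and 3.38% in KO, and 3.92%, 3.94% and 3.94% in WT. All 6 addback and KO libraries lay below all 3 WT libraries, and addback and KO overlapped. Background reads differed between libraries of a group, with 3.00%, 12.5% and 12.4% in addback libraries 1 to 3. The part of background in these medians was not tested.

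**Figure D2:**
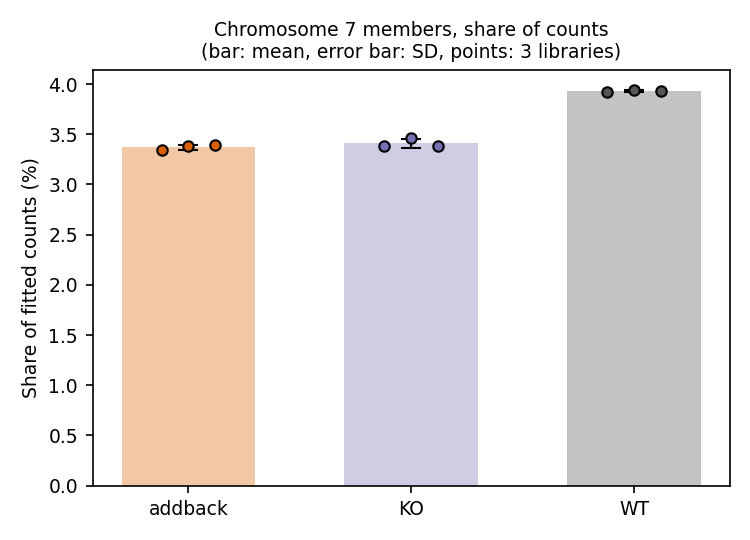
Share of the counts of the 5906 tested genes that fell in the 250 chromosome 7 members, in percent (y axis), for addback, KO and WT; bars are means, error bars SD and points the 3 libraries. The addback and KO points lie between 3.34% and 3.46%, and the WT points between 3.92% and 3.94%.

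KO cells, whose levels set the floor, showed a median of -0.21 against WT, a ratio of 0.867. Of the 250 members, 163 were called lower and 12 higher in KO, beside 28.5% lower and 24.3% higher over all genes tested; counts that involve KO describe the fit and support nothing, because the members were chosen on KO levels. The other chromosomes had a median of 0.00018. The comparisons of addback and of KO with WT share the same 3 WT libraries, so their values are given side by side and not as separate evidence. Between addback and KO, 44 members were called higher and 44 lower in addback, beside 19.2% and 17.6% over all genes tested, and the median was -0.0080 against -0.0016 on other chromosomes. With library sizes scaled on all genes, background reads included, the 5906 low-background genes had a median of 0.36 in KO against WT, a median of -0.34 between addback and KO, and 0.024 for addback over WT. In that scaling, 61 members were called higher and 9 lower in KO than in WT (24.2% and 37.4% over all 21994 genes). In addback against KO 3 were higher and 163 lower (38% and 21.8%), and in addback against WT 3 were higher and 11 lower (1.71% and 0.868%). Genes of other chromosomes at the same floor, whatever their background share, were called higher and lower at other rates in that fit. These were 52.7% and 4.9% in KO against WT, 4.1% and 48.4% in addback against KO, and 2.72% and 1.65% in addback against WT. Relative to the 5569 tested genes of other chromosomes, the member medians in that scaling were -0.21, -0.00602 and -0.22 in the same order.

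Among 23 chromosomes with at least 50 tested genes at the floor, chromosome 7 had the second lowest median in both comparisons with WT. Chromosome 9 was lowest, with medians of -0.41 in addback and -0.44 in KO against WT, and 196 of its 211 genes were called lower in addback. Chromosome 6 came next above chromosome 7, at -0.11 in addback and -0.12 in KO, followed by chromosome 2 at -0.10 and -0.072. Chromosome 14 stood highest, at 0.11 in addback and 0.096 in KO. Between addback and KO the chromosome medians spanned only -0.036 (chromosome 21) to 0.067 (chromosome X), and chromosome 7 was at -0.0080.

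**Figure D3:**
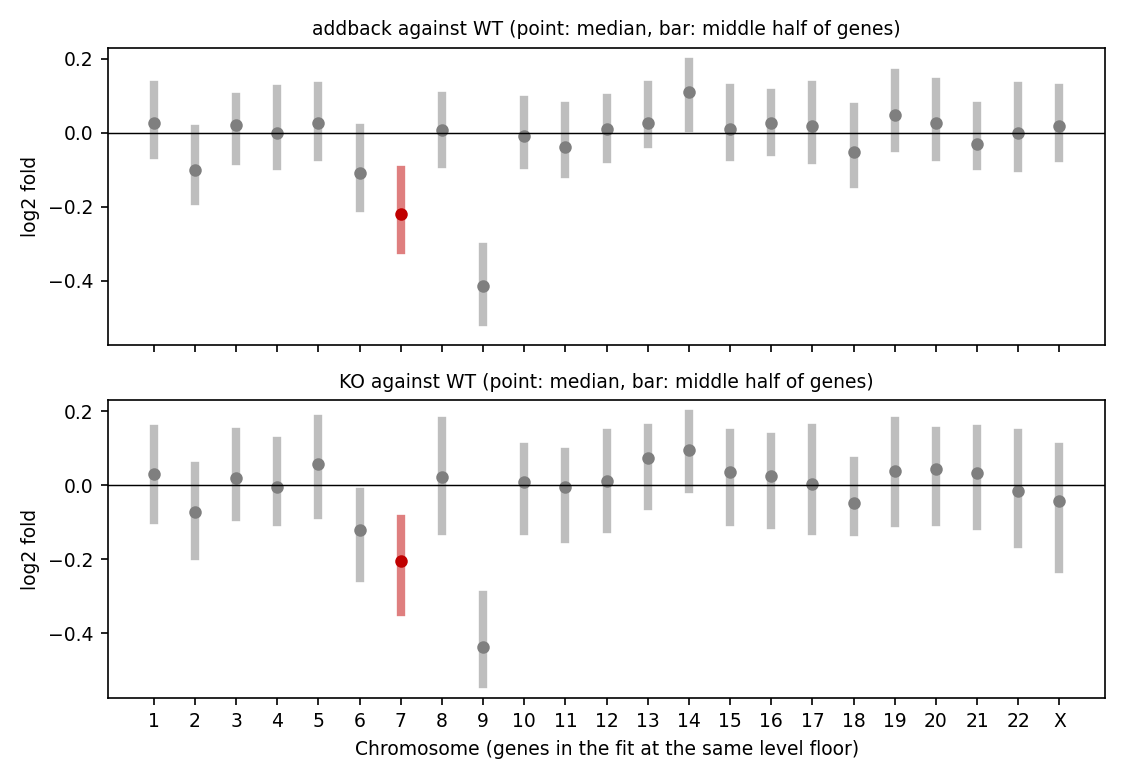
Median log2 fold (points) and quartiles (bars) of tested genes at the level floor on each chromosome (x axis), in addback against WT (top) and KO against WT (bottom). Chromosome 7 (red, 260 genes here, with those set aside by name and those with an entry outside the chromosome) sits at -0.22 and -0.20, below all others except chromosome 9.

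The shift ran along the whole chromosome. In windows of 10 Mb (hg38, taken from each gene's start), all 16 windows had a median below 0 in addback against WT, between -0.11 for 11 members at 50 to 60 Mb and -0.36 for 21 members at 20 to 30 Mb. In the window from 20 to 30 Mb, 17 of 21 members were called lower and 0 higher. KO against WT gave medians below 0 in all 16 windows too, between -0.076 for 15 members at 40 to 50 Mb and -0.32 for 17 members at 150 to 160 Mb. The window from 40 to 50 Mb held the most members called higher in addback than in WT, 4 of 15, beside 8 called lower. Neighbouring genes are not independent replicates, and windows with few members, such as the 3 members at 80 to 90 Mb, carry little weight.

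**Figure D4:**
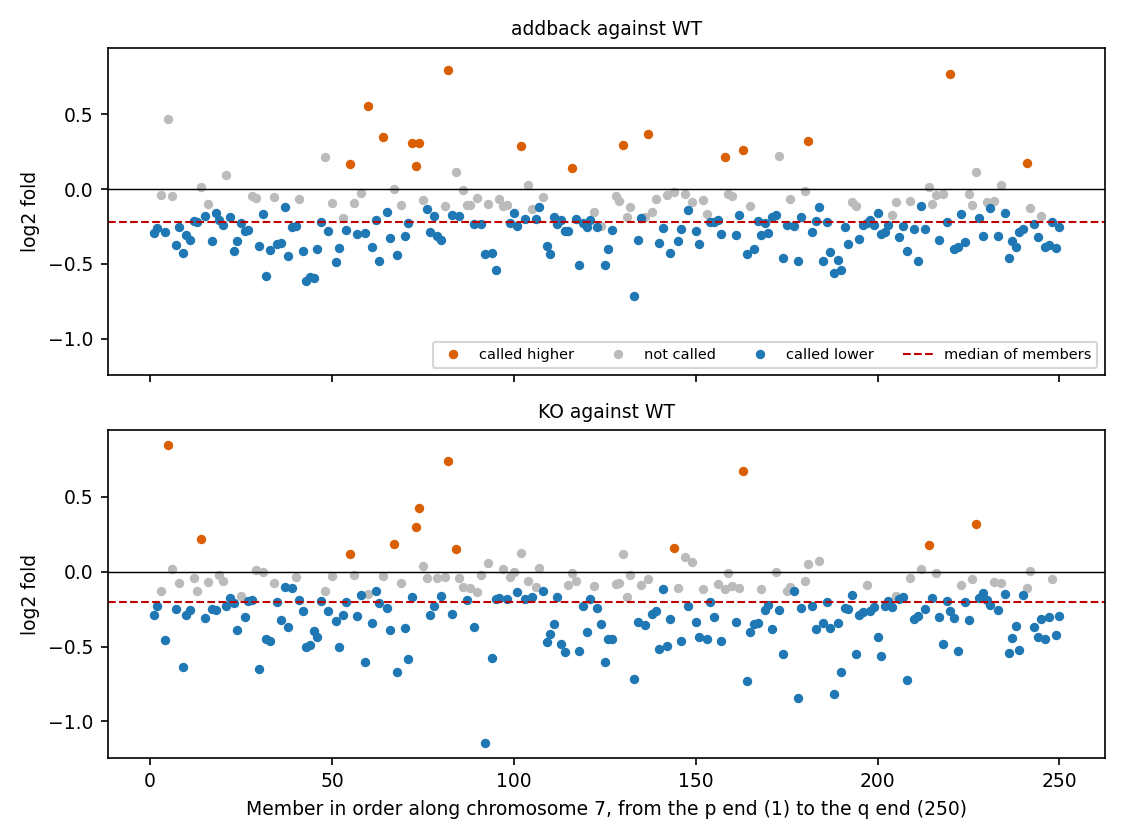
Log2 fold (y axis) of the 250 tested members in their order along chromosome 7 (x axis), in addback against WT (top) and KO against WT (bottom); orange points were called higher, blue lower and grey not called, and the dashed line is the median, at -0.22 and -0.21. Points above 0 are scattered along the order, with DBNL, POLD2 and YKT6 next to each other in the top panel.

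The 16 members called higher in addback than in WT were UPP1, ZC3HAV1, NT5C3A, ASNS, EPDR1, IFRD1, DBNL, YKT6, TFPI2, NSUN5, CLDN15, TRIP6, NUB1, GARS, POLD2 and HSPB1. Their folds, given on the log2 scale ± SE, kept a positive sign under all alternatives run, and with scaling on all genes UPP1, ZC3HAV1 and NT5C3A were the 3 that remained called. UPP1 (chr7:48088603-48108733, plus strand), the uridine phosphorylase that splits uridine for salvage, had 52.95, 56.4 and 48.6 scaled CPM in addback libraries 1 to 3, 49.8, 53.5 and 48.4 in KO and 29.8, 30.6 and 30.6 in WT. All 6 addback and KO libraries of UPP1 lay above all WT libraries, and the fold in addback against WT was 0.80 ± 0.064 (adjusted p = 1.22e-07), with 0.74 in KO against WT. ASNS (chr7:97852117-97872542, minus strand), the asparagine synthetase, had 102, 99.95 and 99.6 scaled CPM in addback libraries 1 to 3, 79.1, 71.3 and 75.7 in KO and 73.6, 79.9 and 80.6 in WT. Addback alone stood above the other groups here, whose ranges overlapped, and the fold was 0.37 ± 0.05 (adjusted p = 3.31e-05). GARS, the glycyl-tRNA synthetase, rose by 0.17 ± 0.043 (adjusted p = 0.00612) in addback.

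ZC3HAV1 (chr7:139043520-139109719, minus strand), an antiviral protein that binds CpG-rich RNA, had 169, 162 and 185 scaled CPM in addback libraries 1 to 3, 82.6, 87.6 and 83.00 in KO and 96.3, 102 and 106 in WT. The addback libraries were far above all others, and KO was below WT without overlap; the fold was 0.77 ± 0.052 against WT (adjusted p = 2.18e-08) and 1.03 against KO. NT5C3A, a pyrimidine nucleotidase, had 48.6, 42.7 and 60.8 scaled CPM in addback libraries 1 to 3, 28.2, 33.4 and 31.8 in KO and 31.4, 32.1 and 40.7 in WT. Its addback libraries lay above all WT libraries, with a fold of 0.55 ± 0.14 (adjusted p = 0.00789; adjusted p = 0.0503 when all genes were fitted). NUB1, which lowers the amount of ubiquitin-like proteins, was called higher in addback by 0.18 ± 0.057 (adjusted p = 0.0226), a call lost without addback 3 (fold 0.10, adjusted p = 0.134) or without WT 1 (0.16, adjusted p = 0.0612). TRIM56, an antiviral ubiquitin ligase, was left out of the tested set because background made up 14.8% of its mean. Its levels were 66.8, 56.9 and 74.4 scaled CPM in addback libraries 1 to 3, 27.8, 26.6 and 24.96 in KO and 29.5, 36.7 and 30.3 in WT. In the fit of all genes TRIM56 was higher in addback than in WT by 1.04 ± 0.11 (adjusted p = 0.000699) and than in KO by 1.32, with no overlap between addback and the rest.

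Among 6 neighbouring members all folds in addback against WT were above 0, over chr7:43940895-44325631. The next longest such run along the chromosome held 3 members, among 47 runs in all. In the fit of all genes the folds were 0.24 for POLR2J4, 0.31 for DBNL, 0.25 for POLM, 0.16 for POLD2, 0.31 for YKT6 and 0.61 for CAMK2B. Only DBNL, POLD2 and YKT6 of these were in the tested set and called; background made up 22.0% of the mean for POLM and 36.0% for CAMK2B, and POLR2J4, a copy of POLR2J, can share reads with its source gene. The run was picked out after its values were seen.

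DBNL, an actin-binding adaptor of endocytosis, had 132, 131 and 124 scaled CPM in addback libraries 1 to 3, 93.2, 91.6 and 92.2 in KO and 104, 105 and 103 in WT. Its addback libraries lay above all others and its KO libraries below all WT libraries, and the fold was 0.31 ± 0.039 in addback against WT (adjusted p = 1.32e-05) and -0.17 in KO against WT. YKT6, a membrane-fusion SNARE of the secretory pathway, had 148, 137 and 142 scaled CPM in addback libraries 1 to 3, 153, 153 and 157 in KO and 123, 116 and 106 in WT. Addback and KO were both above WT without overlap, with folds of 0.31 ± 0.05 in addback (adjusted p = 0.000175) and 0.42 in KO. POLD2, the accessory subunit of DNA polymerase delta, had 181, 186 and 172 scaled CPM in addback libraries 1 to 3, 202, 203 and 189.6 in KO and 167, 162 and 155 in WT. Its folds were 0.16 ± 0.043 in addback (adjusted p = 0.00925) and 0.30 in KO. The addback call of POLD2 was lost without addback 2 (0.13, adjusted p = 0.0523) and when all genes were fitted (0.16, adjusted p = 0.0564). Thus YKT6 and POLD2 were highest in KO, and DBNL was highest in addback.

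The other members called higher in addback were modest. EPDR1, a lysosomal ependymin-related protein, had 29.9, 35.8 and 36.5 scaled CPM in addback libraries 1 to 3, 26.5, 25.8 and 26.3 in KO and 26.7, 27.3 and 26.3 in WT, so that addback lay above the rest by 0.35 ± 0.073 against WT (adjusted p = 0.00138). With only the libraries of least background (addback 1, KO 1 to 3, WT 1) the fold of EPDR1 was 0.16 (adjusted p = 0.27). IFRD1, a transcriptional co-regulator induced by stress, was higher by 0.32 ± 0.055 (adjusted p = 0.000281), and TFPI2, a serine protease inhibitor, by 0.29 ± 0.073 (adjusted p = 0.00466). The call of TFPI2 was lost when all genes were fitted (0.30, adjusted p = 0.072). CLDN15, a tight-junction claudin, had 34.2, 30.9 and 31.4 scaled CPM in addback libraries 1 to 3, 44.9, 41.8 and 41.97 in KO and 27.95, 27.2 and 25.3 in WT. The groups of CLDN15 did not overlap: KO was highest, addback next and WT lowest, with folds of 0.26 ± 0.064 in addback (adjusted p = 0.00457) and 0.67 in KO against WT. TRIP6, an adaptor at focal adhesions, rose by 0.21 ± 0.05 (adjusted p = 0.00283). NSUN5, an rRNA methyltransferase with near-identical copies on the chromosome, was higher by 0.28 ± 0.093 (adjusted p = 0.0245), a call lost without addback 2 (0.23, adjusted p = 0.109), WT 1 (0.25, adjusted p = 0.0844) or WT 3 (0.19, adjusted p = 0.0753). HSPB1, a small heat shock protein, was called at 0.14 ± 0.052 (adjusted p = 0.0464) and lost the call without KO 1, any addback library, WT 2 or WT 3 (adjusted p between 0.0501 and 0.138).

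**Figure D5:**
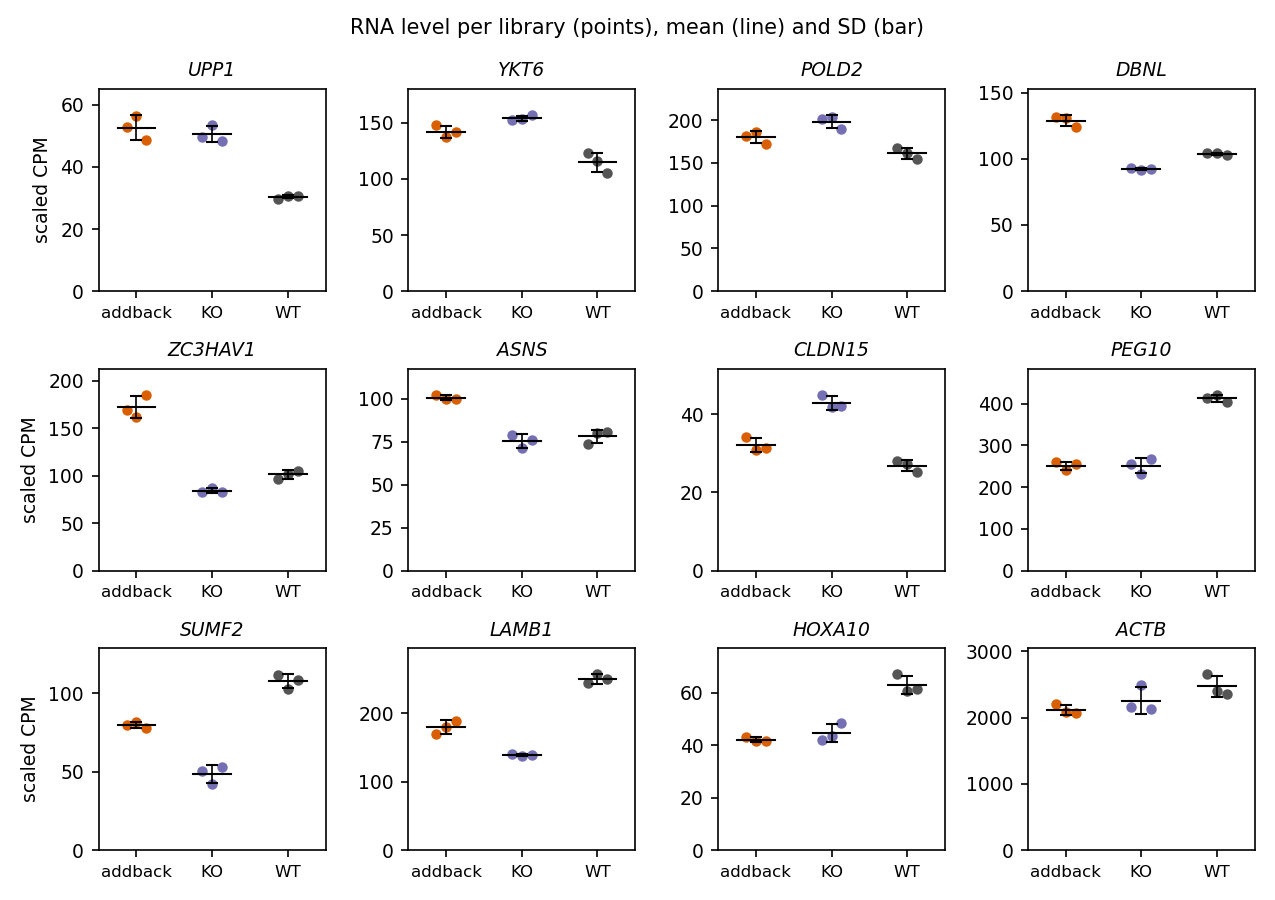
Scaled CPM (y axes, each from 0) of 12 members in the 3 libraries of addback, KO and WT (points), with mean (line) and SD (bar). UPP1, YKT6, POLD2 and CLDN15 stand above WT in addback and KO, DBNL, ZC3HAV1 and ASNS stand above WT in addback only, and PEG10, SUMF2, LAMB1 and HOXA10 stand below WT in addback and KO.

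Among tested members, the largest decreases in addback against WT were in PEG10, 3 HOXA genes and FAM126A. Members outside the tested set are not part of this ranking, and some fell as far, such as CDK6 with 74.1 scaled CPM in addback and 119.9 in WT. PEG10, a retrotransposon-derived gene expressed from the paternal allele, had 259, 240.3 and 255 scaled CPM in addback libraries 1 to 3, 257, 231 and 267 in KO and 415, 419.98 and 403 in WT. Addback and KO overlapped and both were far below WT; the fold was -0.72 ± 0.049 in addback (adjusted p = 2.37e-08) and -0.71 in KO. FAM126A, a subunit of a complex that makes phosphatidylinositol 4-phosphate at the plasma membrane, had 70.7, 69.2 and 74.9 scaled CPM in addback libraries 1 to 3, 78.6, 76.3 and 80.8 in KO and 101, 107 and 114 in WT, with a fold of -0.58 ± 0.052 in addback (adjusted p = 3.47e-07). VKORC1L1, a vitamin K epoxide reductase, and AASS, the first enzyme of lysine breakdown, both fell by 0.54 (adjusted p = 5.01e-07 for VKORC1L1 and adjusted p = 1.96e-06 for AASS).

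HOXA genes, which set position along the body axis in the embryo, formed the lowest group. Of 12 HOXA genes listed 6 are members and 3 were tested, and all 3 were called lower in addback, with a median of -0.59; the list was chosen with results of these libraries known. HOXA10 had 43.1, 41.4 and 41.6 scaled CPM in addback libraries 1 to 3, 42.1, 43.6 and 48.6 in KO and 66.98, 60.7 and 61.5 in WT. HOXA5 and HOXA11 fell to the same degree, by 0.61 (adjusted p = 2.77e-06) and 0.59 (adjusted p = 9.94e-06), and HOXA10 by 0.59 (adjusted p = 2.31e-06). In all 3 genes every addback library lay below every WT library. Outside the tested set, with background of 12.3% to 14.3% of the mean, HOXA3, HOXA9 and HOXA13 had folds of -0.70, -0.50 and -0.75 in addback against WT. In KO against WT HOXA9 was at -0.043, while HOXA3 and HOXA13 were at -0.63 and -0.42.

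Genes of chromosome 7 listed as imprinted, meaning expressed from 1 parental copy in some tissues, did not move together. Whether each was imprinted in these cells was not measured. Of 17 listed, 8 are members and 5 were tested, with 3 called lower and 1 higher in addback and a median of -0.32. PEG10 fell as above, PON2, a lactonase that limits oxidation, fell by 0.34 (adjusted p = 0.000169) and COPG2, a coat subunit of Golgi vesicles, by 0.32 (adjusted p = 2.83e-05). TFPI2 was the member called higher, a call lost when all genes were fitted. GRB10, an adaptor that restrains insulin signalling, had 100.2, 104 and 102 scaled CPM in addback libraries 1 to 3, 103, 111 and 102 in KO and 90.2, 96.6 and 96.9 in WT. The addback and KO libraries of GRB10 all lay above WT, with folds of 0.11 ± 0.046 in addback (adjusted p = 0.0625) and 0.15 in KO.

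Genes of the Williams-Beuren region at 7q11.23, the segment lost in Williams syndrome and a textbook case of dosage, were counted as well, from a list chosen with results known: of 8 tested, 4 were called lower and 1 higher in addback, with a median of -0.13 beside -0.22 for all members, a difference that was not tested. BAZ1B, a chromatin remodelling subunit, had 251, 249.9 and 254 scaled CPM in addback libraries 1 to 3, 256, 252 and 258 in KO and 292, 287 and 287 in WT, and every addback library lay below every WT library. BAZ1B fell by 0.20 (adjusted p = 0.000205) and EIF4H, a helper of translation initiation, by 0.12 (adjusted p = 0.0162). GTF2I, a transcription factor with near-identical pseudogene copies, fell by 0.38 (adjusted p = 5.53e-05). WBSCR22, an rRNA methyltransferase, fell by 0.20 (adjusted p = 0.011), a call lost without addback 3 (-0.15, adjusted p = 0.054) or WT 2 (-0.16, adjusted p = 0.0608). RFC2, BCL7B and TBL2 had folds of -0.054, 0.03 and -0.14 and were not called, and NSUN5 is described above.

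Sorted by role, with lists chosen with earlier results of these libraries known, the groups below are read beside all tested members, of which 66% were called lower and 6.4% higher in addback against WT, and all tested genes, with 22.1% and 19.1%. Nothing particular to a role is drawn from the counts. The list names are loose labels that do not hold for every gene, such as TMEM106B in the mitochondrial list. Some genes are counted in several lists, such as NUDT1 (mitochondria, metabolism, cell cycle) and ANLN (cytoskeleton, cell cycle). In the mitochondrial list 15 of 20 tested members were called lower and 0 higher, with a median of -0.29, among them FIS1, a mitochondrial fission adaptor (-0.44), and HIBADH, an enzyme of valine breakdown (-0.40). In the folding and secretory list 20 of 25 were lower and 2 higher (median -0.23), with the vesicle GTPase ARF5 at -0.37, COPG2 at -0.32 and the sulfatase-modifying factor relative SUMF2 at -0.43. For cell cycle and DNA repair 14 of 19 were lower and 1 higher (median -0.32), with the cytokinesis protein ANLN at -0.48 and the kinase CDK5 at -0.46. Chromatin and transcription genes numbered 12 lower and 0 higher of 17 (median -0.22), among them the kinase HIPK2 (-0.40) and the homeodomain factor CUX1 (-0.40). The median of all members was -0.22.

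Cytoskeleton and adhesion genes counted 15 lower and 1 higher of 19 (median -0.22), with the laminin chain LAMB1 at -0.48 and the caveolin CAV2 at -0.48. Signalling genes counted 11 lower and 0 higher of 15 (median -0.22), with PRKAR2B, a regulatory subunit of protein kinase A, at -0.46 and SMO, the Hedgehog signal transducer, at -0.30. For metabolism 13 of 19 were lower and 2 higher (median -0.25). Translation genes counted 10 lower and 1 higher of 15 (median -0.22), including EIF2AK1, the kinase that phosphorylates eIF2 when heme is short, at -0.35. RNA processing genes counted 8 lower and 2 higher of 18 with a median of -0.12, and IGF2BP3, an RNA-binding protein of embryonic cells, was at -0.36. Of 28 zinc finger members only 5 were tested, and 3 of these were called lower (median -0.16). The medians of the lists were not tested against each other.

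Subunits encoded on chromosome 7 could be set beside their partners from other chromosomes within the same protein complex. EIF3B of the translation factor eIF3 was at -0.25 in addback against WT, beside a median of 0.056 for 11 partners. Of these partners 3 were called higher and 0 lower. CCT6A of the CCT chaperonin was at -0.23 beside 0.0061 for 7 partners, of which 3 were called lower and 1 higher. RPA3 of the single-strand DNA binding complex was at -0.41 beside 0.047 for 2 partners, of which 0 were called. POLR2J of RNA polymerase II, which has copies on the chromosome, was at -0.30 beside -0.0066 for 11 partners. Of those 11, 3 were called lower and 1 higher. EIF3B, CCT6A, RPA3 and POLR2J were all called lower. NCAPG2 of condensin II was called lower at -0.39, beside -0.096 for 4 partners, of which 2 were called lower and 1 higher.

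Further subunits can be set beside their partners in the same way, and the gaps were not tested. MCM7 of the replicative helicase was at -0.087 (adjusted p = 0.121) beside -0.041 for 5 partners, and was not called, but leaving out WT 3 gave a call (-0.12, adjusted p = 0.0415), as did the replicate number as a block (-0.086, adjusted p = 0.0278). RFC2 of the clamp loader was at -0.054 beside 0.027 for 4 partners, EZH2, the methyltransferase of PRC2, at -0.084 beside 0.048 for 3, and LSM5 at -0.09 beside -0.0035 for 5. None of RFC2, EZH2 and LSM5 was called. ARPC1A and ARPC1B, alternative subunits of the ARP2/3 actin nucleator, stood at -0.26 and -0.042, beside -0.063 for 7 partners, and ARPC1A was called lower. POLD2 stood above its 2 partners, whose median was 0.052. COPS6 of the COP9 signalosome was called at -0.14 beside -0.083 for 8 partners, and lost the call without addback 2 (-0.14, adjusted p = 0.0592), addback 3 (-0.13, adjusted p = 0.0529) or WT 1 (-0.088, adjusted p = 0.147).

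The members with the most reads in KO were ACTB, HNRNPA2B1, PPIA, MCM7 and CCT6A. ACTB, the cytoplasmic actin often used to normalise assays, had 2203, 2089.5 and 2066 scaled CPM in addback libraries 1 to 3, 2158, 2489 and 2124 in KO and 2653, 2398 and 2358 in WT. Every addback library of ACTB lay below every WT library; the fold was -0.22 ± 0.061 (adjusted p = 0.00884), and without WT 1 it was -0.15 (adjusted p = 0.0523). HNRNPA2B1, a splicing and RNA transport protein, had 1428, 1411 and 1371 scaled CPM in addback libraries 1 to 3, 1552, 1531 and 1578 in KO and 1753, 1673 and 1600.4 in WT, and fell by 0.26 (adjusted p = 0.000186) in addback with the groups in the order addback, KO, WT from lowest to highest. PPIA, the cyclophilin A prolyl isomerase with many processed copies in the genome, had 836, 802 and 770.3 scaled CPM in addback libraries 1 to 3, 974, 990.1 and 945 in KO and 1044, 989 and 963 in WT. PPIA fell by 0.32 in addback against WT (adjusted p = 3.44e-05), while KO overlapped WT at -0.043.

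In KO against WT, given as values only, the lowest tested member was SUMF2, a relative of the sulfatase-modifying enzyme in the endoplasmic reticulum. It had 80.1, 81.6 and 77.9 scaled CPM in addback libraries 1 to 3, 50.4, 42.5 and 53.1 in KO and 112, 103 and 109 in WT. The groups of SUMF2 did not overlap and addback lay between KO and WT, with folds of -1.14 in KO against WT and 0.71 in addback against KO. LAMB1, a laminin chain of basement membranes, had 169, 179.6 and 189 scaled CPM in addback libraries 1 to 3, 141, 138 and 139 in KO and 243, 257 and 249.7 in WT. Addback was again between the other groups, with -0.85 in KO against WT and -0.48 in addback against WT. The tetraspanin TSPAN12 (-0.82 in KO and -0.56 in addback), FIS1 (-0.73 and -0.44), the sialomucin PODXL (-0.72 and -0.42) and MPLKIP, a gene of non-photosensitive trichothiodystrophy (-0.67 and -0.44), followed the same order. CDCA7L, a MYC-interacting nuclear protein (-0.65 and -0.38), the chloride channel gene TTYH3 (-0.64 and -0.42), and FKBP9, a prolyl isomerase of the endoplasmic reticulum (-0.60 and -0.29), did so too. CYP51A1, the sterol demethylase of cholesterol synthesis, had 112, 109 and 108 scaled CPM in addback libraries 1 to 3, 99.3, 109 and 98.97 in KO and 157, 156 and 154 in WT. Its addback and KO ranges overlapped and lay below WT, with folds of -0.61 in KO and -0.50 in addback against WT.

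On the high side of KO against WT, MAFK, a small partner of NRF2 and other leucine-zipper factors, had 41.7, 41.8 and 34.3 scaled CPM in addback libraries 1 to 3, 42.5, 67.6 and 43.00 in KO and 30.1, 30.1 and 24.4 in WT. KO 2 stood far above KO 1 and KO 3, and the fold in addback against WT, 0.47 ± 0.20, was not called (adjusted p = 0.0978; 0.48 and adjusted p = 0.000848 without KO 2, and 0.48 and adjusted p = 0.016 with the replicate number as a block). ZYX, a focal adhesion protein, was likewise pulled up by KO 2: it had 109, 106 and 95.03 scaled CPM in addback libraries 1 to 3, 109, 144 and 106 in KO and 101, 98.2 and 87.3 in WT. FSCN1, an actin bundler, had 301, 283 and 266 scaled CPM in addback libraries 1 to 3, 327, 329.9 and 324 in KO and 287, 282 and 274 in WT, and the small GTPase RALA had 68.8, 63.6 and 65.04 scaled CPM in addback libraries 1 to 3, 75.9, 75.2 and 72.7 in KO and 66.3, 65.5 and 65.1 in WT. In FSCN1 and RALA all KO libraries lay above all others, while addback and WT overlapped, with folds of 0.22 and 0.18 in KO and 0.013 and 0.003 in addback against WT. The actin-binding CALD1 and the splicing factor BUD31 had folds of 0.17 and 0.15 in KO, with 0.013 and -0.02 in addback. Without KO 2 the KO fold of CALD1 was 0.083.

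Between addback and KO, also values only, ZC3HAV1 had the highest fold among tested members (1.03). Next came SUMF2 (0.71), NT5C3A (0.70), DBNL (0.48) and NAMPT (0.48), the rate-limiting enzyme of NAD salvage. NAMPT had 129.6, 113 and 148 scaled CPM in addback libraries 1 to 3, 91.6, 94.1 and 95.1 in KO and 106, 105 and 126 in WT. The lowest folds were those of CLDN15 (-0.42), VKORC1L1 (-0.36), PPIA (-0.27), ANLN (-0.27) and ATP5J2, a subunit of ATP synthase (-0.24). VKORC1L1 had 73.1, 70.4 and 69.9 scaled CPM in addback libraries 1 to 3, 87.3, 96.3 and 89.5 in KO and 106, 106 and 98.2 in WT. Its groups did not overlap, with addback lowest and WT highest.

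The members were also sorted by gene span, which the selection did not use, and by background share and mean level, which it did, as a description across genes that are not independent replicates. By gene span from start to end, the 84 members with the shortest genes had a median of -0.18 in addback against WT, the next 83 a median of -0.21 and the 83 longest -0.25. In KO against WT the same classes had -0.16, -0.17 and -0.29. By share of background in the mean, addback against WT gave -0.22, -0.22 and -0.23 from the lowest to the highest class, while KO against WT gave -0.11, -0.23 and -0.30 and addback against KO gave -0.12, 0.0047 and 0.078. In both comparisons with KO the background share moved with the fold; its part in those values was not tested. By mean level, addback against WT gave -0.18, -0.25 and -0.23 from the lowest to the highest class.

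The 188 members outside the tested set comprised 162 over the background limit, 9 with too little coding sequence and 17 with no coding length. Fitted with all 21994 genes, they had a median of -0.19 in addback against WT, where 31 were called lower and 5 higher beside 4.81% lower and 4.46% higher over all genes. The 5 were SNHG15, a long non-coding RNA, TRIM56, FLNC, a muscle filamin, and the zinc finger genes ZNF853 and ZNF783. In KO against WT the 188 had a median of -0.40, with 131 called lower and 7 higher, beside 54.9% lower and 7.86% higher over all genes, whose median was -0.51. Addback against KO gave 65 higher and 12 lower with a median of 0.22, beside 51.5% and 5.71% over all genes. Genes of other chromosomes at the same floor, whatever their background share, had a median of -0.085 in KO against WT in this fit. Of these, 32.9% were called lower and 17.5% higher. In addback against KO their median was 0.076, with 26.1% called higher and 12.7% lower. In addback against WT it was -0.0036, with 9.49% lower and 9.22% higher. For the 188, the comparisons with KO set libraries with background against libraries where its estimate, a median over genes, was 0.

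Regions downstream of genes, where transcription runs past the normal end, are covered by the authors' deposited tables for KO against WT and for addback against KO. In the authors' deposited table for KO against WT, 79 regions belong to members, of which 29 were lower and 11 higher at an adjusted p under 0.05, which is 36.7% and 13.9%, beside 634 lower and 631 higher of all 2541 regions. SMO had the highest region fold there, 2.07 ± 0.27 in the authors' deposited table (chr7:129213545-129219944), and NSUN5 the lowest called one, -1.25 ± 0.11 (chr7:73265317-73302516). In the authors' deposited table for addback against KO, 77 regions belong to members, with 10 higher and 9 lower, beside 445 higher and 372 lower of all 2396 regions. The TRIM56 region was highest there at 1.41 ± 0.091 in the authors' deposited table, and the C7orf50 region was lowest of those called at -0.76 ± 0.18. Background reads in WT and addback libraries can fall in such regions as well, and their part in these folds was not tested.

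At the edge of the floor, the 3 members just inside it were GS1-124K5.11, ZNF862 and CCDC71L with KO means of 15.5, 15.7 and 15.8 CPM, and the 3 genes just outside it were AMPH, MTERF1 and FAM221A with 14.98, 14.9 and 14.9 CPM. With the floor raised to 30 CPM, 319 members remained, of which 219 were in the tested set.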

How the data were processed

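Poly(A)-selected RNA of HEK293 cells was sequenced in 9 libraries (addback, KO and WT, 3 each). Per the submitters' processing notes, cutadapt 1.8.1, STAR 2.5.2b and DESeq2 were used on hg38; how reads were counted, with which strand setting and annotation, is not given in the sources used here. A table deposited by the authors gives counts per gene, not normalized, with exon lengths; its columns named KO.U were taken as addback because tables of the authors call that group KO-UBE3D. For regions downstream of genes, the authors' deposited tables hold p-values, raw and adjusted, a test statistic (score), log2 fold changes with standard errors and a base mean (signal, a mean normalized count).

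Members and lists of genes were chosen with earlier results of these data known. Coding lengths came from GENCODE v29 and were found for 421 of 438 members. Background per coding kilobase was taken as the median over 624 tissue-restricted genes and averaged over the 6 addback and WT libraries. Tested genes had a background share no higher than 10% of their mean CPM and at least 10% of exon length as coding sequence. They were tested with edgeR 4.0.16 (R 4.3.3): TMM factors from those 5906 genes, robust quasi-likelihood fit, genotype as the only term, Benjamini-Hochberg adjustment over 5906 genes. A fit of 21994 genes with the same factors covers all members. In both fits, the SE of a fold was taken as its absolute size divided by the square root of the F statistic of its test. On simulated data the fit was checked against known fold changes. Named members are the 12 lowest and 12 highest called folds in KO against WT, the 5 lowest and 5 highest called in each other comparison, the 5 with most KO reads, the 3 on each side of the floor, and up to 4 per list by size of fold. Members called higher in addback than in WT, the run of neighbours, the remaining Williams-Beuren and HOXA members, and GRB10 in addback were added after values were seen. Alternatives comprised other scalings, filters, background corrections, DESeq2 1.42.0, a replicate block and leaving out each library.

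Samples with the same number in addback and WT deviated together from their group means (correlations of 0.508, 0.201 and 0.6 over genes). Pairs of unlike number ran from -0.592 (addback 3 with WT 1) to 0.226 (addback 2 with WT 1). For number 2 the matched pair was thus not the highest. Samples with the same number in KO and WT did not deviate together (0.0602, 0.037 and 0.0908), nor did those in addback and KO throughout (0.0381, 0.123 and 0.2). No libraries of a group agreed within counting noise, since the chi-square per degree of freedom was 1.95 or more. Precision is limited by 3 libraries per group.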

Additional observations from a re-analysis of the deposited data

How the results depend on the processing

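Scaling on all genes, with all 21994 genes fitted, changed the counts most: KO against WT 61 higher and 9 lower, addback against KO 3 and 163, addback against WT 3 and 11. It moved the median of the low-background genes to 0.361, -0.341 and 0.0243 in the same order; fitting all genes with unchanged factors gave 10 higher and 121 lower of the same 250 members in addback against WT, and the cause was not tested further. The medians of members less those of other chromosomes stayed below 0 in both comparisons with WT under all alternatives run, and ran from -0.1953 (without WT 3) to -0.2236 (without WT 2) in KO against WT when single libraries were left out. In addback against WT that median was -0.2391 with 2 times the background subtracted. In addback against KO it was -0.01915 with background subtracted, -0.03337 with 2 times subtracted and 0.01289 with background averaged over 9 libraries. Fitting all genes, and so all 438 members, gave 286 lower in KO against WT and 113 higher in addback against KO. In addback against KO the number called lower was 22 with 2 times the background subtracted, and between 26 (without addback 3) and 52 (without WT 3) when single libraries were left out. Using only the libraries with the least background (KO 1 to 3, addback 1, WT 1; chosen after seeing the data, as was averaging over 9 libraries) gave 24 higher and 10 lower in addback against KO and 108 lower in addback against WT; the lone libraries were assumed to vary as KO does. There ARPC1B turned to 0.002428 (adjusted p = 0.989) in addback against WT. With the replicate number as a block, addback against WT had 20 higher and 176 lower, KO against WT 12 and 167, and addback against KO 53 and 56; of 104 values of single members 2 gained and 1 lost a call (MAFK at 0.48 and MCM7 at -0.086 in addback against WT, and CALD1 at 0.17 in KO against WT). DESeq2 and upper quartile factors changed no call among those 104. Another floor or no count filter could not change a single call. The floors reuse the same fit, and the filter removed none of the 5906 genes. Other causes of these changes were not tested.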
